A study of Homo sapiens with 2 samples.

Results

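The nuclear genes of oxidative phosphorylation encode most subunits of the 5 respiratory complexes of the inner mitochondrial membrane, and here their promoters were examined for chromatin accessibility in WIBR3, a line of human embryonic stem cells. Members were the protein-coding genes of the nuclear genome whose symbols begin with NDUFA, NDUFB, NDUFC, NDUFS, NDUFV, SDHA to SDHD, UQCR, COX4 to COX8 or ATP5. This rule found 100 of the 19974 protein-coding genes on chromosomes 1 to 22 and X, and the members lay on 22 chromosomes. The strand and 5′ end were known for 82 members, as for 15813 of all protein-coding genes, and the results below are on these 82 unless the other 18 are named. The prefixes also take in assembly factors (NDUFAF and SDHAF symbols) and readthrough genes, and they leave out COXFA4, which is the subunit formerly called NDUFA4.

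The study used ATAC-seq, which cuts and tags open DNA with a transposase, and asked which chromatin was open or closed in each of 2 states. One library was made from hTBLCs (human totipotent blastomere-like cells), a state that the study's title links to repression of the spliceosome. The other library came from primed cells, the conventional culture state of human embryonic stem cells. Both share the line, so each state is represented by 1 genetic background. Culture agents and times are not given in the labels.

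With 1 library per state there was no replicate, no test between the states was possible, and every interval below covers counting error only. The authors' peak lists held 299673 peaks for hTBLCs and 295753 for primed cells, with median summit pileups of 17 and 18. The summit pileup, the number of reads or fragments stacked at the highest point of a peak, was solved from the deposited fold enrichment and −log10 p. Ratios of hTBLC to primed pileups were divided by the ratio of the libraries' background levels, 1.957 in hTBLCs and 1.789 in primed cells, which gave a relative depth of 1.09. This scaling lowered every ratio, and the median of all promoters, by 0.13 on the log2 scale. Without it the medians given below for complex III, for members without strand and for other assembly factors, and ratios just below 1, would turn to above 1. Of 10 marker genes listed for pluripotent cells, 5 had a known 5′ end, and all 5 had a promoter region in both libraries. So did PDGFRB (1 of 6 fibroblast markers listed), GATA6 (1 of 4 endoderm markers) and NEUROG1, PAX6 and SOX1 (3 of 4 neural markers). These were the other lineage markers with a known 5′ end. An open region at these promoters therefore does not tell cell types apart. Of the 4 pluripotent cell markers with a ratio, 3 had an interval below 1, against 13.6% of all promoters, and 1 was above 1. Counts this small are not read as a result. SOX2 had a pileup of 85 in hTBLCs and 116 in primed cells, and NANOG had 21 in hTBLCs and 35 in primed cells. L1TD1 had 97 in hTBLCs and 151 in primed cells, whereas DPPA4 had 81 in hTBLCs and 55 in primed cells (ratio 1.35, 0.94 to 1.93). DNMT3B had 85 in hTBLCs and 59 in primed cells, but in peaks that did not overlap, so it was given no ratio. Of 8 markers listed for the 8-cell embryo, 5 had a known 5′ end, and none of these had a promoter region in hTBLCs. KLF17 and H3Y1 had one in primed cells, with pileups of 12 and 18. The summits of these weak peaks lay between 387 and 946 bp downstream of the 5′ end. The primed list also reaches down to a lower −log10 p, 2.0 against 2.83 in hTBLCs. Each library is a bulk sample, so fewer cells with an open promoter and less opening per cell cannot be told apart.

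Oxidative phosphorylation passes electrons along complexes I to IV to oxygen and uses the resulting proton gradient to drive ATP synthase, complex V. Complex I takes electrons from NADH, complex II takes them from succinate, complex III passes them to cytochrome c and complex IV to oxygen. Most promoters of these genes are of the broadly active, CpG-rich kind, and the transcription factors NRF1, the ETS family member GABP and YY1 are known regulators of many of them. Conventional human embryonic stem cells rely strongly on glycolysis.

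The 6 promoters printed here span the range of the results, from the highest ratio of hTBLCs to primed cells (NDUFAF2) to one of the lowest (NDUFS7), and show the motifs that recur among the members. Each is written 5′ to 3′ on the strand of its gene, as far as 250 bases before the 5′ end, from RefSeq in the build GRCh38.p14. The capitals mark matches on either strand to the NRF1 motif, to the shorter NRF1 letters TGCGCA or to the ETS letters CCGGAAG. NDUFAF2 is at chr5:60945071-60945204 on the plus strand, where the stretch ends at the start of its divergent neighbour ERCC8.
NDUFAF2: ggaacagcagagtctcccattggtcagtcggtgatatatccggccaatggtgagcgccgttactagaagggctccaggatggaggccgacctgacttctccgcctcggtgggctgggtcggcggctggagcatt
NDUFB4 is at chr3:120596086-120596335 on the plus strand, and its 11 capitals are the NRF1 motif with 1 further base that completes an overlapping TGCGCA.
NDUFB4: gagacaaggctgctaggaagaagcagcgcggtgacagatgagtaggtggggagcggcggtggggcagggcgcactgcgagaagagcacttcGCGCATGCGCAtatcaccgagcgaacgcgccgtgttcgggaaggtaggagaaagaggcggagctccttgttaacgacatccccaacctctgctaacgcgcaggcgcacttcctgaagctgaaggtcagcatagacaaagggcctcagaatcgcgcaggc
SDHD is at chr11:112086757-112086872 on the plus strand, and its stretch ends at the boundary of a neighbouring gene. Its capitals mark an NRF1 motif with an overlapping TGCGCA, and an ETS motif on the opposite strand.
SDHD: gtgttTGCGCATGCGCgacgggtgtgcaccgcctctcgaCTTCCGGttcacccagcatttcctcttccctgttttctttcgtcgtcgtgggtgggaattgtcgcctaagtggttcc
SDHB is at chr1:17054033-17054282 on the minus strand, with TGCGCA and an ETS motif.
SDHB: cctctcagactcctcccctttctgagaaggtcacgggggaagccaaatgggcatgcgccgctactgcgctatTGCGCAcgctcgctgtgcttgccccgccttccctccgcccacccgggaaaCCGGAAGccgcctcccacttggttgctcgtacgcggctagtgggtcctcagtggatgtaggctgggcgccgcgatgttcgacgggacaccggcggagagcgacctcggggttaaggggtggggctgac
NDUFS7 is at chr19:1383657-1383906 on the plus strand, with TGCGCA.
NDUFS7: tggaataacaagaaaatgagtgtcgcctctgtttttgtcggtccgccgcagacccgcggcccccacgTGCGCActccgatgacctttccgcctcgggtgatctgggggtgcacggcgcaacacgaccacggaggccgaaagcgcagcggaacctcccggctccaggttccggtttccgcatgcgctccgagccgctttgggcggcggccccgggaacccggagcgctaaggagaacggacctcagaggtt
ATP5PO is at chr21:33915805-33916054 on the minus strand, with none of these letters in its stretch.
ATP5PO: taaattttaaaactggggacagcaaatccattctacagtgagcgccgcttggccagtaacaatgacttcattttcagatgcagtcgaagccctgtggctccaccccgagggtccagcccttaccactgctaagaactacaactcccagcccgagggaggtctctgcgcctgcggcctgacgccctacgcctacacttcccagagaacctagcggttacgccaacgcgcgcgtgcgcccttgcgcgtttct

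Nearly all members had an open promoter in both states. A peak lay within 1 kb of the 5′ end in both libraries for 79 of 82 members (96.3%, Wilson 95% interval 89.8 to 98.7), against 79.3% of all protein-coding genes. No member had a promoter peak in hTBLCs alone, against 2.24% of all genes, and none in primed cells alone, against 2.9%. For 76 of the 79 the −log10 q was at least 10 in both libraries. This was not particular to members. Over all open promoters the lower quartile of −log10 q was 27.7 in hTBLCs and 26.9 in primed cells. The 3 members with no peak in either library were COX6A2, COX7B2 and COX8C, against 15.5% of all genes with none. All 3 encode tissue-restricted forms of complex IV subunits, COX6A2 that of heart and skeletal muscle and COX7B2 and COX8C forms found in testis.

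The ubiquitous counterparts of these closed genes were open. COX6A1, the widely expressed form of the subunit whose muscle form is COX6A2, had a pileup of 112 in hTBLCs and 117 in primed cells, a scaled ratio of 0.88 (0.67 to 1.14). COX7B had 72 in hTBLCs and 39 in primed cells, and COX8A had 144 in hTBLCs and 132 in primed cells. COX6B2, a testis form of COX6B, was the 1 tissue-restricted member with a peak in the window, at 24 in hTBLCs and 43 in primed cells, but its summits lay 673 and 620 bp downstream of the 5′ end. COX6B1, its ubiquitous counterpart, had 84 in hTBLCs and 75 in primed cells (ratio 1.02, 0.74 to 1.42).

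**Figure D1:**
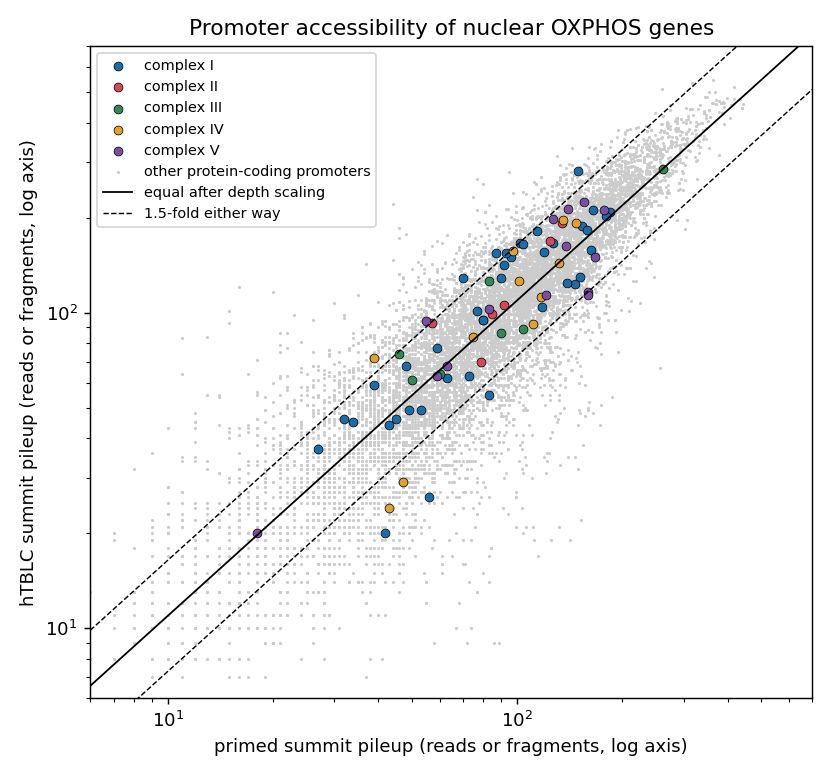
Summit pileup (reads or fragments, log axes) of the strongest promoter peak, in hTBLCs on the vertical and in primed cells on the horizontal axis, for members coloured by complex and other protein-coding promoters in grey, with lines for equality after scaling (solid) and 1.5-fold (dashed). The members spread over more than a 10-fold range within both libraries, from 20 to 285 in hTBLCs and from 18 to 261 in primed cells.

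Promoter signal varied far more among members than between states. The median pileup of the open members was 112 in hTBLCs and 92 in primed cells, against 89 and 82.5 for all open promoters. The lowest were ATP5MG, a small membrane subunit of ATP synthase, with 20 in hTBLCs and 18 in primed cells, and, in hTBLCs alone, NDUFS7 with the same 20. The highest in both was UQCRQ, a complex III subunit, with 285 in hTBLCs and 261 in primed cells. Across the 78 members with a ratio, pileups in hTBLCs and primed cells had a Spearman correlation of 0.87, beside 0.88 over all 11824 promoters. These points share library, background and base composition, so this is a description.

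**Figure D2:**
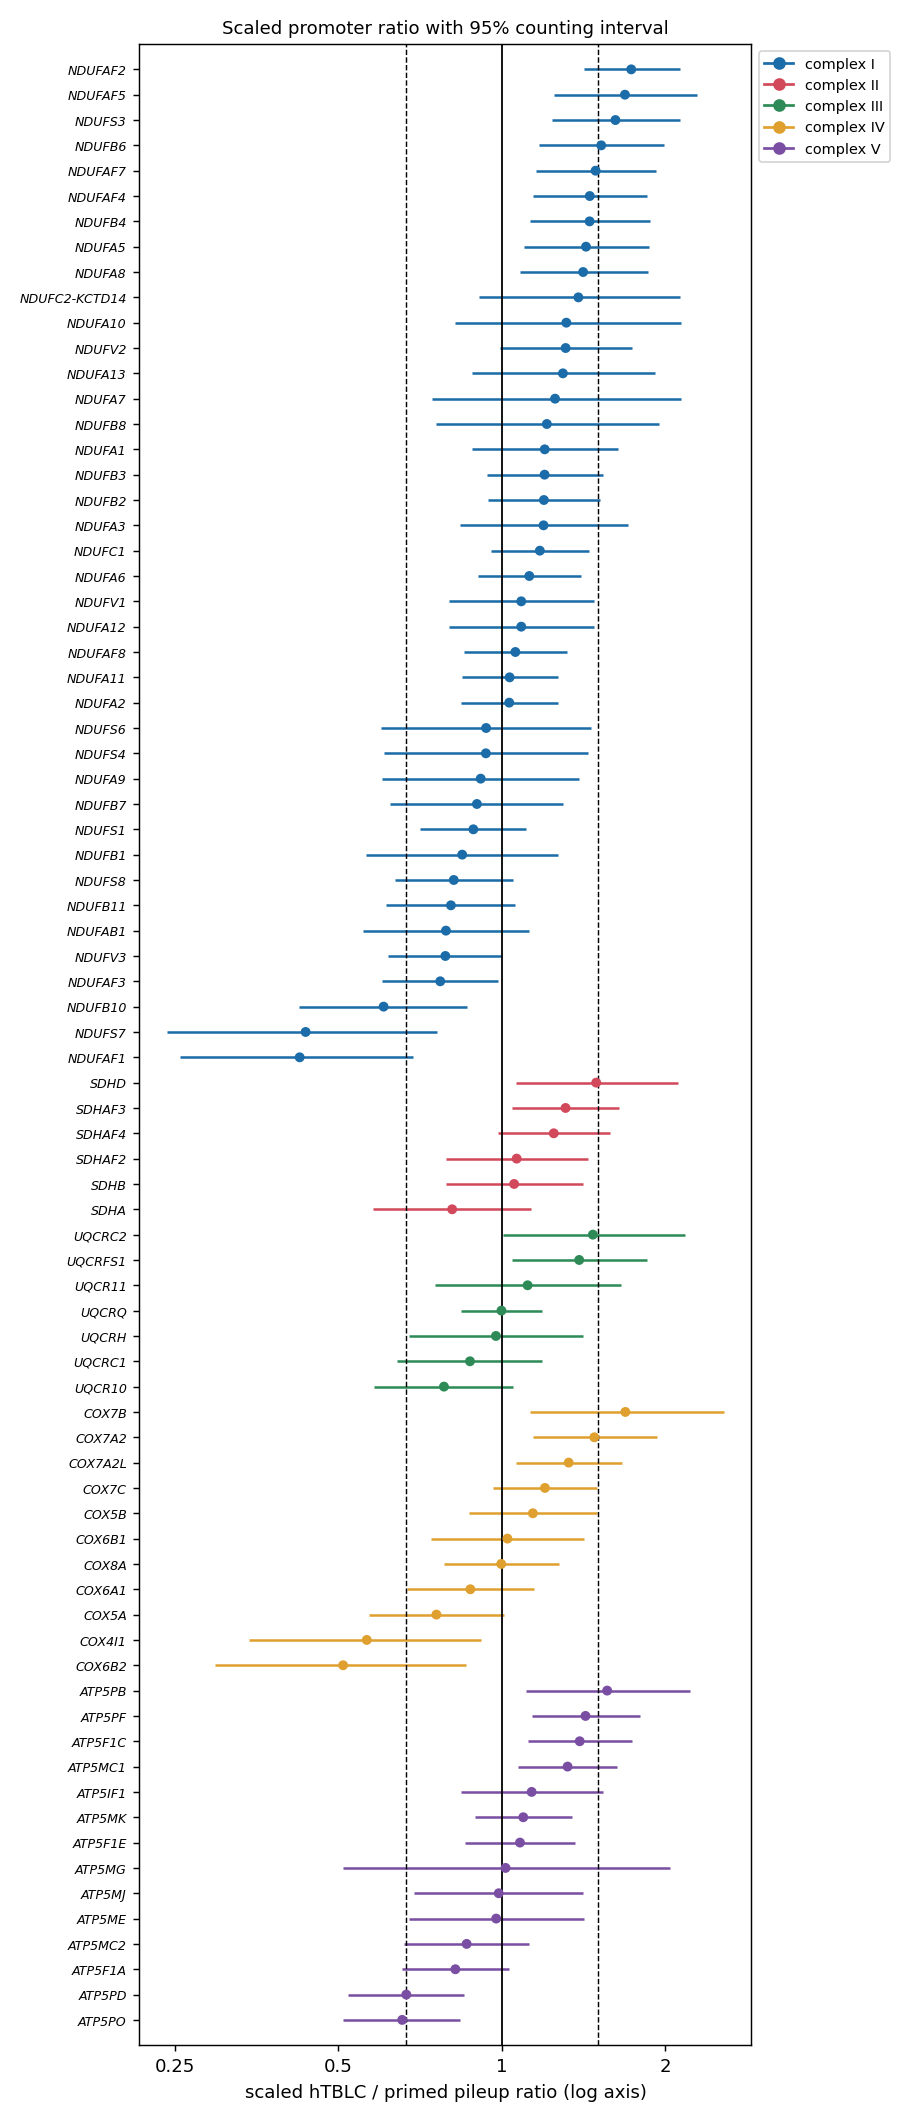
Scaled ratio of hTBLC to primed summit pileup for each member on a log axis, with exact binomial 95% intervals for counting error, grouped and coloured by complex, with dashed lines at 1.5-fold. Of the 78 ratios, 50 have an interval that includes 1 and 12 lie past 1.5-fold, 6 in each direction.

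The median member ratio was slightly above 1. On the log2 scale the median was 0.12 (quartiles −0.19 and 0.40), against 0.03 (−0.28 and 0.31) for all promoters, both after scaling. The ratio was above 1 at 48 of 78 members (61.5%), against 53.1% of all promoters. The interval lay above 1 at 20 members, 25.6% against a background of 17.6%, and below 1 at 8 members, 10.3% against 13.6%. A ratio above 1.5 was found at 6 members, 7.69% against 9.4% of all promoters. A ratio below 1/1.5 was found at 6 members, 7.69% against 11.2%. At all 12 the interval also excluded 1, which held upward for 8.58% and downward for 9.5% of all promoters. The shares past 1.5-fold were thus no higher than the background in either direction. At promoters whose pileups summed to at least 100, 6 of 66 members lay above 1.5-fold and 2 below its inverse, against 8.93% and 7.47% of all such promoters. These counts are too small to be read as a result, and the limit of 100 was chosen after the data were seen.

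Complex I, the largest of the complexes, had 40 members with a ratio and a median of 0.20 on the log2 scale. Of these, 26 (65%) were above 1, 4 (10%) were above 1.5-fold and 3 (7.5%) below its inverse, against 53.1%, 9.4% and 11.2% of all promoters. Its 7 assembly factors, which build the complex without staying in it, held both the highest and the lowest ratio of all members. NDUFAF2, a chaperone of late assembly, had a pileup of 282 in hTBLCs and 149 in primed cells, a ratio of 1.73 (1.41 to 2.12). NDUFAF1, which acts on an early membrane-arm intermediate, had 26 (exact Poisson interval 17.0 to 38.1) in hTBLCs and 56 (42.3 to 72.7) in primed cells, a ratio of 0.42 (0.26 to 0.69). The pileup intervals of NDUFAF1 do not overlap.

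The other assembly factors of complex I also differed among themselves. NDUFAF5, which modifies the NDUFS7 protein, had 129 in hTBLCs and 70 in primed cells (ratio 1.68, 1.25 to 2.29). NDUFAF4 had 181 in hTBLCs and 114 in primed cells (1.45, 1.14 to 1.85), and NDUFAF7, a methyltransferase, had 166 in hTBLCs and 102 in primed cells (1.49, 1.16 to 1.92). NDUFAF8 was close to parity at 183 in hTBLCs and 158 in primed cells (1.06), and NDUFAF3 was at 123 in hTBLCs and 146 in primed cells (0.77, 0.60 to 0.99). Over the assembly factors of complexes I and II together, 8 of 10 ratios (80%) were above 1, against 53.1% of all promoters. Their median was 0.35 on the log2 scale. The summed pileups of these 10 gave a ratio of 1.25 (1.15 to 1.35), beside 1.044 over all promoters. That interval pools counts and leaves out the spread among the genes, whose ratios ran from 0.42 (NDUFAF1) to 1.73 (NDUFAF2). It therefore does not set the group apart. Of the 11 assembly factors with a known 5′ end, 7 (63.6%) had another 5′ end on the opposite strand within 1 kb, against 12.8% of all genes. Peaks shared in this way cannot be assigned to 1 gene. Outside the prefixes, 42 other respiratory assembly factors had a median of −0.06 with 16 (38.1%) above 1, against 53.1% of all promoters. Their summed pileups gave a ratio of 1.016 (0.976 to 1.057), with an interval that likewise leaves out the spread among genes.

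The nuclear core subunits of complex I, which form the arm that passes electrons from NADH to quinone, lay on both sides of 1. NDUFS7, which holds the iron-sulfur cluster next to the quinone, had 20 (12.2 to 30.9) in hTBLCs and 42 (30.3 to 56.8) in primed cells, a ratio of 0.44 (0.24 to 0.76). NDUFS3 had 154 in hTBLCs and 87 in primed cells (1.62, 1.24 to 2.13). The summits of NDUFS3 lay at −376 bp in hTBLCs and −364 bp in primed cells, upstream and towards the divergent gene KBTBD4, and the peak nearest its own 5′ end gave 0.83. The direction for NDUFS3 therefore depends on which peak is taken. NDUFS1, with the most iron-sulfur clusters of any subunit, had 158 in hTBLCs and 163 in primed cells (0.89, 0.71 to 1.11), and NDUFV1, which binds NADH, had 95 in hTBLCs and 80 in primed cells (1.09, 0.80 to 1.48).

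Among the accessory subunits of complex I, NDUFB6 and NDUFB10, both of the membrane arm, passed 1.5-fold in opposite directions. NDUFB6 had 155 in hTBLCs and 93 in primed cells (1.52, 1.17 to 1.99), but its strongest summit lay at −55 bp in hTBLCs and 715 bp downstream in primed cells. With the peak nearest the 5′ end NDUFB6 had a ratio of 1.56. NDUFB10 had 55 in hTBLCs and 83 in primed cells (0.61, 0.42 to 0.86). NDUFB4, whose NRF1 motif is printed above, had 165 in hTBLCs and 104 in primed cells (1.45, 1.13 to 1.87), and NDUFA8 had 142 in hTBLCs and 92 in primed cells (1.41, 1.08 to 1.85). The 2 accessory subunits past 1.5-fold thus had no common direction. Over the accessory subunits of all complexes, 25 of 42 ratios (59.5%) were above 1, against 53.1% of all promoters.

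Complex II, succinate dehydrogenase, also serves the citric acid cycle, and its 6 members with a ratio had a median of 0.20 on the log2 scale. SDHD, a membrane anchor, had 93 in hTBLCs and 57 in primed cells, a ratio of 1.49 (1.06 to 2.11), just short of the 1.5-fold limit. SDHA, the flavoprotein, had 70 in hTBLCs and 79 in primed cells (0.81, 0.58 to 1.13), and SDHB, the iron-sulfur subunit, had 106 in hTBLCs and 92 in primed cells (1.05, 0.79 to 1.41). The subunits of this small complex were not shifted alike. SDHAF3, an assembly factor for SDHB, had 192 in hTBLCs and 134 in primed cells (1.31, 1.05 to 1.65). SDHAF1 had 51 in hTBLCs and 46 in primed cells, with strongest summits at −50 bp in hTBLCs and 648 bp downstream in primed cells, so it was given no ratio.

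Complex III had a median of −0.00 over 7 members and none past 1.5-fold. Over all promoters 9.4% were above 1.5-fold and 11.2% below its inverse, and 7 members are too few to read a difference from this. UQCRQ had a ratio of 0.998 (0.84 to 1.19), and UQCRH, the hinge protein, had 64 in hTBLCs and 60 in primed cells (0.98, 0.67 to 1.41). UQCRC1 had 86 in hTBLCs and 90 in primed cells (0.87, 0.64 to 1.19), and UQCR11 had 61 in hTBLCs and 50 in primed cells (1.12, 0.75 to 1.65). The intervals of these 4 genes include 1. UQCRFS1, the Rieske iron-sulfur protein, had 126 in hTBLCs and 83 in primed cells (1.39, 1.04 to 1.85). UQCRC2, a subunit of the matrix-facing part, had 74 in hTBLCs and 46 in primed cells, the highest ratio of the complex (1.47, 1.004 to 2.17). Its strongest summits lay apart, at −37 bp in hTBLCs and −314 bp in primed cells. Those of UQCR11 lay at −147 bp in hTBLCs and −546 bp in primed cells. UQCR10 had 89 in hTBLCs and 104 in primed cells, the lowest ratio of the complex (0.78, 0.58 to 1.05).

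Complex IV, cytochrome c oxidase, had a median of 0.03 over 11 members, with 1 (9.09%) above 1.5-fold and 2 (18.2%) below its inverse, against 9.4% and 11.2% of all promoters. COX7B had a ratio of 1.69 (1.13 to 2.56). COX7A2, the ubiquitous form of its subunit, had 157 in hTBLCs and 97 in primed cells (1.48, 1.14 to 1.93). COX4I1, the common form of the regulatory subunit 4, had 29 in hTBLCs and 47 in primed cells (0.56, 0.34 to 0.91), and COX6B2 had a ratio of 0.51 (0.30 to 0.86). The pileup intervals of COX4I1, 19.4 to 41.6 in hTBLCs and 34.5 to 62.5 in primed cells, overlap. COX7C had 193 in hTBLCs and 147 in primed cells (1.20, 0.96 to 1.5), and COX8A had a ratio of 0.997 (0.78 to 1.27).

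Complex V had a median of 0.07 over 14 members. In the peripheral stalk, which holds the catalytic head still, subunits lay on both sides. ATP5PB had 94 in hTBLCs and 55 in primed cells (1.56, 1.11 to 2.22), and ATP5PF had 198 in hTBLCs and 127 in primed cells (1.43, 1.13 to 1.8). ATP5PO had 114 in hTBLCs and 159 in primed cells (0.66, 0.51 to 0.84), and ATP5PD had 116 in hTBLCs and 159 in primed cells (0.67, 0.52 to 0.85), on either side of the lower fold limit. The 4 stalk genes thus divided into a pair with higher and a pair with lower pileups in hTBLCs. ATP5PB, ATP5PF and ATP5PD have the divergent neighbours WDR77, GABPA and KCTD2 within 1 kb, so their peaks cannot be assigned to the stalk gene alone. GABPA, which is in the list of regulators below, had the same pileups as ATP5PF.

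The catalytic head and the rotor of complex V were also mixed. ATP5F1A, the alpha subunit, had 150 in hTBLCs and 167 in primed cells (0.82, 0.65 to 1.03), whereas ATP5F1C, the central stalk subunit, had 213 in hTBLCs and 140 in primed cells (1.39, 1.12 to 1.73). Of the genes for the rotor's c subunit, which encode the same mature protein, ATP5MC1 had 224 in hTBLCs and 155 in primed cells (1.32, 1.07 to 1.63) and ATP5MC2 had 114 in hTBLCs and 121 in primed cells (0.86, 0.66 to 1.12). ATP5MK, the member of complex V with the highest mean pileup, had 212 in hTBLCs and 177 in primed cells (1.09, 0.89 to 1.34). ATP5IF1, the inhibitor of ATP hydrolysis, had 103 in hTBLCs and 83 in primed cells (1.13, 0.84 to 1.53).

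Of the 18 members without a known strand, both gene ends were examined and the end of stronger signal was taken. A region was found in both libraries for 15, and 14 had a ratio, with a median of −0.11 on the log2 scale and a range of 0.66 to 1.38. None was above 1.5-fold, against 9.4% of all promoters, and 2 were below its inverse, against 11.2%, and nothing can be read from counts this small. ATP5MC3, another gene for the c subunit, had 51 in hTBLCs and 71 in primed cells (0.66, 0.45 to 0.95). COX6C, a complex IV subunit, had 32 in hTBLCs and 44 in primed cells (0.66, 0.41 to 1.07). SDHC, the other membrane anchor of complex II, had 113 in hTBLCs and 80 in primed cells (1.29, 0.96 to 1.74), and ATP5F1B, the catalytic beta subunit, had 242 in hTBLCs and 212 in primed cells (1.04). UQCRHL and ATP5MGL, which are retrocopies, had no peak at either end. COX7A1, the muscle form of its subunit, had no peak in hTBLCs and a pileup of 10 in primed cells. COX4I2, the lung-enriched form of subunit 4, had 10 in hTBLCs and 9 in primed cells at one end, in peaks that did not overlap, and 18 in hTBLCs with no peak in primed cells at the other. The restricted forms were thus closed or weak in both states, as were the 3 without a promoter peak.

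**Figure D3:**
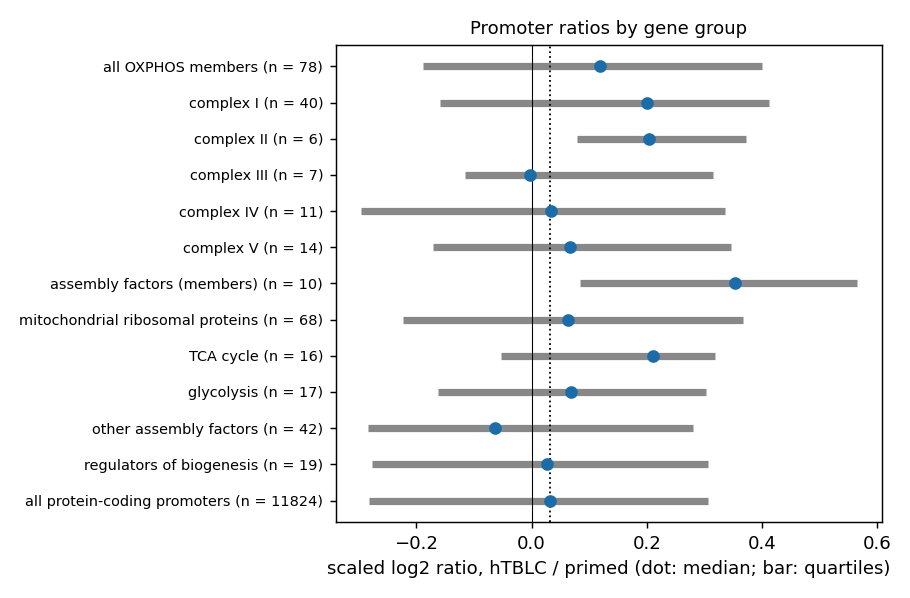
Median log2 scaled ratio of hTBLCs to primed cells, with quartiles, for members by complex and role and for other mitochondrial and metabolic gene lists, beside all promoters. Complexes I and II have medians of 0.20 and complex III of −0.00, against 0.03 for all promoters.

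Other mitochondrial and metabolic lists had medians in the same small range. The TCA cycle, which feeds electrons to the chain, had 0.21 over 16 genes, and glycolysis had 0.07 over 17. Mitochondrial ribosomal proteins, which make the subunits encoded in mitochondrial DNA, had 0.06 over 68, with 8 (11.8%) above 1.5-fold and 3 (4.41%) below its inverse, against 9.4% and 11.2% of all promoters. Regulators of mitochondrial biogenesis had 0.03 over 19. COXFA4 had 138 in hTBLCs and 122 in primed cells (1.03, 0.80 to 1.33), and COXFA4L2, formerly NDUFA4L2 and a target of hypoxia signalling, had 78 in hTBLCs and 88 in primed cells (0.81). The medians of the members, 0.12, and of these lists thus lay within a narrow band around that of all promoters.

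**Figure D4:**
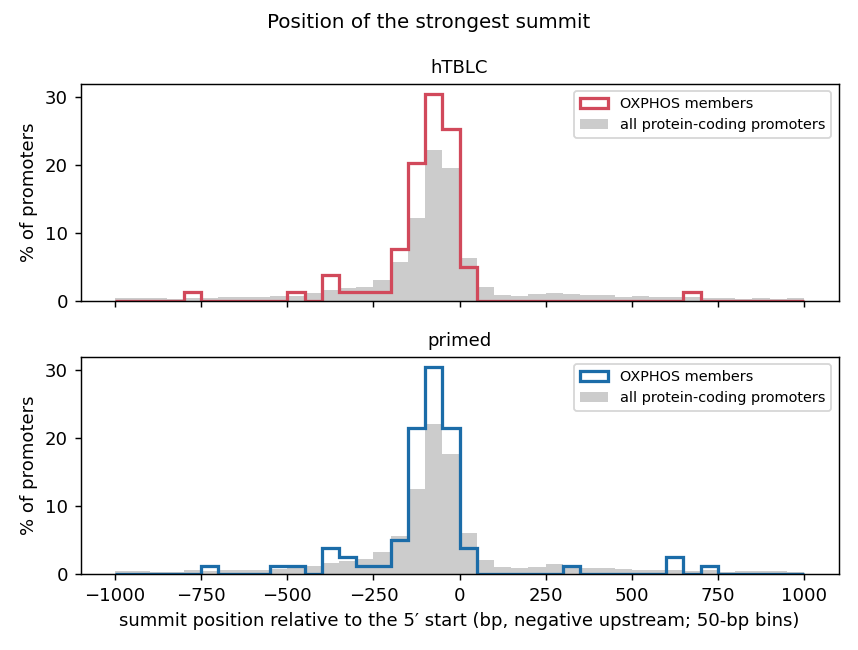
Position of the strongest promoter summit relative to the 5′ end in bp (negative values upstream), as the percent of promoters per 50-bp bin, for members (outline) beside all protein-coding promoters (grey), in hTBLCs above primed cells. Most member summits lie within 200 bp, with medians of −76 bp in hTBLCs and −83 bp in primed cells.

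The position of the open site was kept between the states at most members. The median shift between the summits of hTBLCs and primed cells was 14 bp, against 17 bp for all promoters, and 68 of the 78 members with a ratio (87.2%) moved by at most 50 bp, against 80.4%. The summit lay within 200 bp of the 5′ end for 70 of 79 members in hTBLCs (88.6%) and for 65 in primed cells (82.3%), against 69.6% and 68.0% of all open promoters. It lay upstream for 93.7% of members in hTBLCs and 91.1% in primed cells, against 77.2% and 76.3%. Median peak widths at members were 888 bp in hTBLCs and 858 bp in primed cells, against 914 and 933 bp. Among these 78, the summits of NDUFB6, UQCR11, UQCRC2 and NDUFS4 shifted by over 200 bp, and each lay farther from the 5′ end in primed cells. The same held for SDHAF1, which had no ratio.

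Many members shared their upstream region with a divergent gene. Another protein-coding 5′ end on the opposite strand lay within 1 kb for 29 of 82 members (35.4%), against 12.8% of all genes, counted over the starts that the table lists. Their median was 0.09 on the log2 scale, against 0.12 for members without one. Of the 6 members above 1.5-fold, 4 had such a neighbour, namely NDUFAF2 with ERCC8, NDUFAF5 with ESF1, NDUFS3 with KBTBD4 and ATP5PB with WDR77. Of the 6 below, COX4I1 with EMC8 had one. Over all promoters with such a neighbour 6.65% were above 1.5-fold and 6.07% below its inverse, against 9.94% and 12.2% of those without one. The member counts are too small to be read as a result. Peaks between divergent starts cannot be assigned to one gene.

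**Figure D5:**
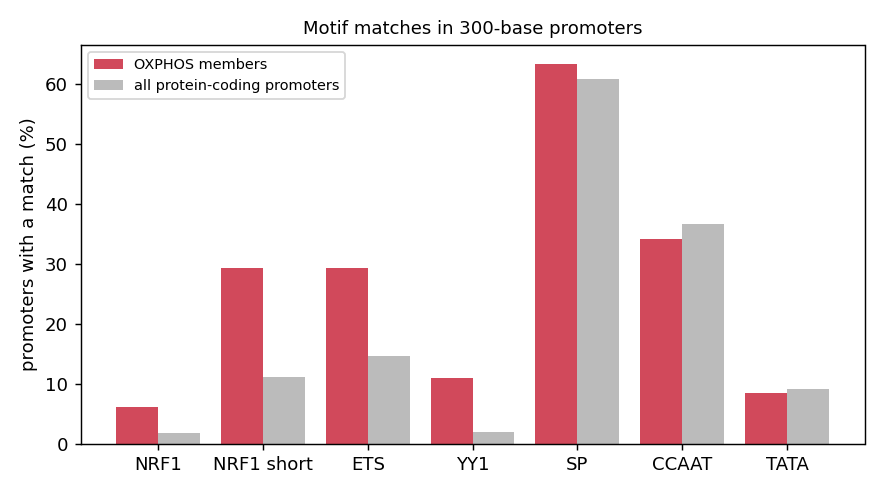
Share of promoters (300 bases, in percent) with a match to each motif on either strand, members beside all protein-coding promoters. The share of members exceeds that of all promoters for NRF1, its short form TGCGCA, ETS and YY1, and is similar for SP, CCAAT and TATA.

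Promoter sequence was compared over the 250 bases before and 50 after the 5′ end, a feature that the choice of members did not use. The NRF1 motif, the first 10 capitals of the NDUFB4 promoter, was found in 5 member promoters (6.10%), against 1.79% of all promoters and 2.14% of those open in both libraries. The shorter TGCGCA, which overlaps the full motif in NDUFB4 and SDHD, was found in 24 (29.3%), against 11.2% and 13.0%. The ETS letters CCGGAAG were found in 24 (29.3%), against 14.6% and 17.4%. The YY1 motif was found in 9 (11%), against 1.99% and 2.47%. At least 1 of these was found in 41 members (50%), against 25.3% and 29.8%. The SP letters GGGCGG were in 63.4% of members and 60.9% of all promoters, CCAAT in 34.1% and 36.6%, and TATAAA in 8.54% and 9.08%. A match is a description and not a bound site.

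Members with the ETS letters had a median ratio of 0.08 on the log2 scale and those without had 0.17, against 0.06 and 0.03 over all promoters. The median was 0.16 with TGCGCA and 0.11 without, and 0.07 with the YY1 motif and 0.13 without. Printed promoters with NRF1 or ETS letters belong to genes on both sides, NDUFB4 and SDHD with higher and NDUFS7 with lower pileups in hTBLCs. NDUFAF2, with the highest ratio, and ATP5PO, with one of the lowest, have none of these letters in their printed stretches.

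Farther from the 5′ end, few regions near members were found in 1 state alone. Within 10 kb but outside the promoter window, the 82 members had 19 regions in hTBLCs alone, 0.232 per gene, and 34 in primed cells alone, 0.415 per gene. Over all genes there were 0.443 per gene in hTBLCs alone and 0.563 per gene in primed cells alone. Regions shared by both states numbered 76 by the hTBLC list and 74 by the primed list. The lists end at different thresholds, a −log10 p of 2.83 in hTBLCs and 2.0 in primed cells, and the part of this in the weak regions was not tested.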

How the data were processed

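ATAC-seq peaks of 1 hTBLC and 1 primed library of WIBR3 were used. Bowtie2, Picard, MACS2 and the build hg38 are named in the submitters' processing notes, with no version or setting, and read shifting, duplicate handling and thresholds are unknown. For each library the authors deposited peak starts, ends and summit offsets in bp, a score (not used), a fold ratio of summit over local background, a −log10 p-value and a −log10 q-value.

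A whole pileup and background were solved from the deposited fold, taken as pileup plus 1 over background plus 1, and the −log10 p, taken as the Poisson upper tail. Whole values were found for 99.998% of hTBLC and 99.999% of primed peaks when −log10 p was matched to within 0.001. Ratios of hTBLC to primed pileups were divided by 1.09, the ratio of the most frequent lowest backgrounds. Read totals were not used, and this background is the one measure of depth. Peaks off chromosomes 1 to 22 and X, 16 in each list, were left out. Ranks without a line numbered 327 in hTBLCs and 252 in primed cells, and peaks at those ranks are treated as missing.

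The 5′ ends and promoter sequences came from RefSeq (GRCh38.p14), which has the coordinates of hg38. For each gene the strongest peak within 1 kb of any listed 5′ end was taken (11 members have several), a choice made after values were seen. A ratio needed the strongest peaks to overlap. With 1 library per state a ratio past 1.5-fold stood in for a call. Intervals are exact binomial for ratios, exact Poisson for pileups and Wilson for shares, and cover counting error only.

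Members and lists were chosen with earlier results of these data known. The naming rule took members open in 1 library or neither, the 6 highest and 6 lowest ratios, the highest and lowest mean pileup of each complex, those past 1.5-fold whose interval excludes 1, and 30 genes by name. Other members named were chosen after their values were seen. Alternatives changed the window, threshold, scaling, peak, overlap, fold limit and gene set. The outermost gene end, the first listed start, inclusion of the 18 members without strand and the summed pileup limit of 100 were added after the data were seen. The steps were tested on simulated data. Python 3.11.15, NumPy 2.4.6, pandas 2.3.3 and SciPy 1.17.1 were used.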

Additional observations from a re-analysis of the deposited data

How the results depend on the processing

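Of 398 alternative values for single genes, 8 lay on the other side of 1 from the reported ratio. NDUFS3, past 1.5-fold as reported, turned to 0.83 with the peak nearest the 5′ end, and COX7C moved to 0.87 with the summed peaks of the window. The counting interval of COX7C includes 1, as do those of the other genes, ATP5MG, COX8A, NDUFS1, UQCRH and UQCRQ. Without scaling the median log2 ratio was 0.25 for all members, 0.33 for complex I, 0.16 for complex IV and 0.20 for complex V, and 18 members passed 1.5-fold upward, 23.1% against 15.1% of all promoters, whose median was then 0.16. Centring on the median of all promoters left 5 members (6.41%) above 1.5-fold and 7 (8.97%) below its inverse, against 8.38% and 12.3% of all promoters. With summed peaks the median was 0.041 for all members and 0.062 for complex I, against −0.04 for all promoters. Complex I had 0.12 with the nearest peak and 0.12 without promoters shared with another gene, where complex III had 0.32 over 4 members. Without those shared promoters 2 members (4.08%) passed 1.5-fold upward and 5 (10.2%) downward, against 9.97% and 12.3% of all promoters. At a fold limit of 2, 0 members passed upward and 2 downward, with no share of all promoters beside them, so these counts are not read as a result.

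Members open in hTBLCs alone numbered 2 with a window of 2500 bp and 2 at a −log10 q of at least 10. Members open in primed cells alone numbered 1 at that q, 1 at the outermost gene end, 1 at the first listed start and 1 with the members without strand. Members closed in both numbered 1 with 2500 bp, 5 at the outermost end and 5 with the members without strand. The causes were not tested. These counts have no share of all promoters beside them at the same settings, so they are not read as a result. No paired analysis was possible because each state has 1 library. Depth limits weak promoters most, such as NDUFS7 with 20 in hTBLCs and 42 in primed cells, and 10 members lay within 5% of a fold limit.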
